A study of Bos taurus with 6 samples.

Results

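The genes described here belong to the transforming growth factor beta (TGF-beta) system of cultured bovine granulosa cells (GC), the somatic cells that surround the oocyte in the follicle. They are the ligands TGFB1, TGFB2 and TGFB3, the receptors TGFBR1, TGFBR2 and TGFBR3, the latent TGF-beta binding proteins LTBP1 and LTBP2, and TGFBI and SMAD7. These 10 genes were chosen by name with earlier results of these data known, so their counts are no independent evidence. Each symbol was carried by a single transcript cluster (the set of probes that stands for 1 gene), so that 10 of the 26773 transcript clusters of the table were followed. RNA was measured in 6 cultures, 3 plated at normal density (100000 cells per well) and 3 at high density (1000000 cells per well). All of them stayed serum-free for 9 days, with new medium every 2 days, in the presence of FSH (20 ng/ml), IGF-1 (50 ng/ml) and androstenedione (2 μM), so that plating density was the difference between the groups. The primary cells were pools from ovaries of many slaughtered cows of undefined cycle stage, collected from small to medium sized follicles, and the methods give the RNA as coming from 6 GC preparations, 3 per group. Whether a preparation of each density came from the same pool was not stated. P-values measure the spread between these preparations.

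TGF-beta is secreted in a latent form, in which the mature dimer stays bound to its own propeptide and is tied to a latent TGF-beta binding protein that anchors it in the extracellular matrix. After release, the ligand binds the type II receptor, which recruits and phosphorylates the type I receptor. The type I receptor in turn phosphorylates SMAD2 and SMAD3, which enter the nucleus with SMAD4 and change the transcription of target genes. SMAD7 is itself such a target gene and blocks the type I receptor, which makes it a negative feedback. In the ovary, members of this superfamily take part in granulosa cell growth, steroid production and formation of the follicular matrix.

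The question was whether the components of this system differed between GC plated at high and at normal density. TGFB1, LTBP1, TGFBI and SMAD7 rose at high density, and none of the 10 genes fell by limma at the thresholds of the methods (fold change (FC) above 1.5 in size, p-value and FDR below 0.05). At an unadjusted p below 0.05 limma had 7 genes higher and 1 lower, against 15.1% higher and 17.2% lower, 32.3% together, among all transcript clusters. The test that the study used, equal to a plain comparison of 2 means per gene and termed the methods' t-test here, also called 4 genes up and 0 down. The rises were 3.67-fold for TGFB1 and between 1.82-fold and 1.86-fold for the other 3. Over all transcript clusters 3.97% rose and 3.51% fell, 7.49% together. At the FDR threshold alone, whatever the fold, 6 of the 10 genes were higher and 0 lower, against 8.64% higher and 10.4% lower, 19.1% together, among all transcript clusters. Among transcript clusters whose higher group mean lay above the background level, as it did for 8 of the 10 genes, 12.8% were called. The high density cultures lay all on one side of the normal density cultures for 8 of the 10 genes, as for 37.3% of all transcript clusters. The median log2 fold change was 0.34 over the 10 genes and 0.02 over all transcript clusters. TGFB3 and LTBP2, below the background level in both groups, set the former median with differences of 0.39 and 0.28. They are also among the 6 genes that were higher at the FDR threshold alone. Signals are log2 values made with the RMA procedure, changes are high minus normal density, group means carry the SD of their 3 cultures, and adjusted p-values are from limma over the whole table. The background level was 4.62, the 95th percentile of the 82 reporter control rows. Signals of different genes come from different probes and were not compared with each other.

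All 12 GC markers had a mean above the background level in at least one group, while CYP19A1 (aromatase), at 6.51 at normal density, was below it at high density (3.71). Of these, 6 fell, among them CYP19A1, FSHR and INHA, and 0 rose at high density, beside 3.51% and 3.97% of all transcript clusters. Among transcript clusters above the background level in at least one group, 12.8% were called in either direction. The marker list was chosen with earlier results of these data known. At an unadjusted p below 0.05 limma had 2 of the 12 higher and 9 lower, against 15.1% and 17.2% of all transcript clusters. The methods' t-test called 0 up and 6 down, and its version for unequal variances 0 up and 4 down. The log2 of the summed signals of this list was between 13.01 and 13.11 at normal density and between 12.70 and 12.72 at high density, and the part of this difference in the results below was not tested. High density replicate 2 stood farthest from the other cultures of its group, with a mean Euclidean distance of 46.3 over all transcript clusters against 41.4 and 40.1 for replicates 1 and 3, and the log2 fold change and call of each of the 10 genes were computed without it as well.

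**Figure D1:**
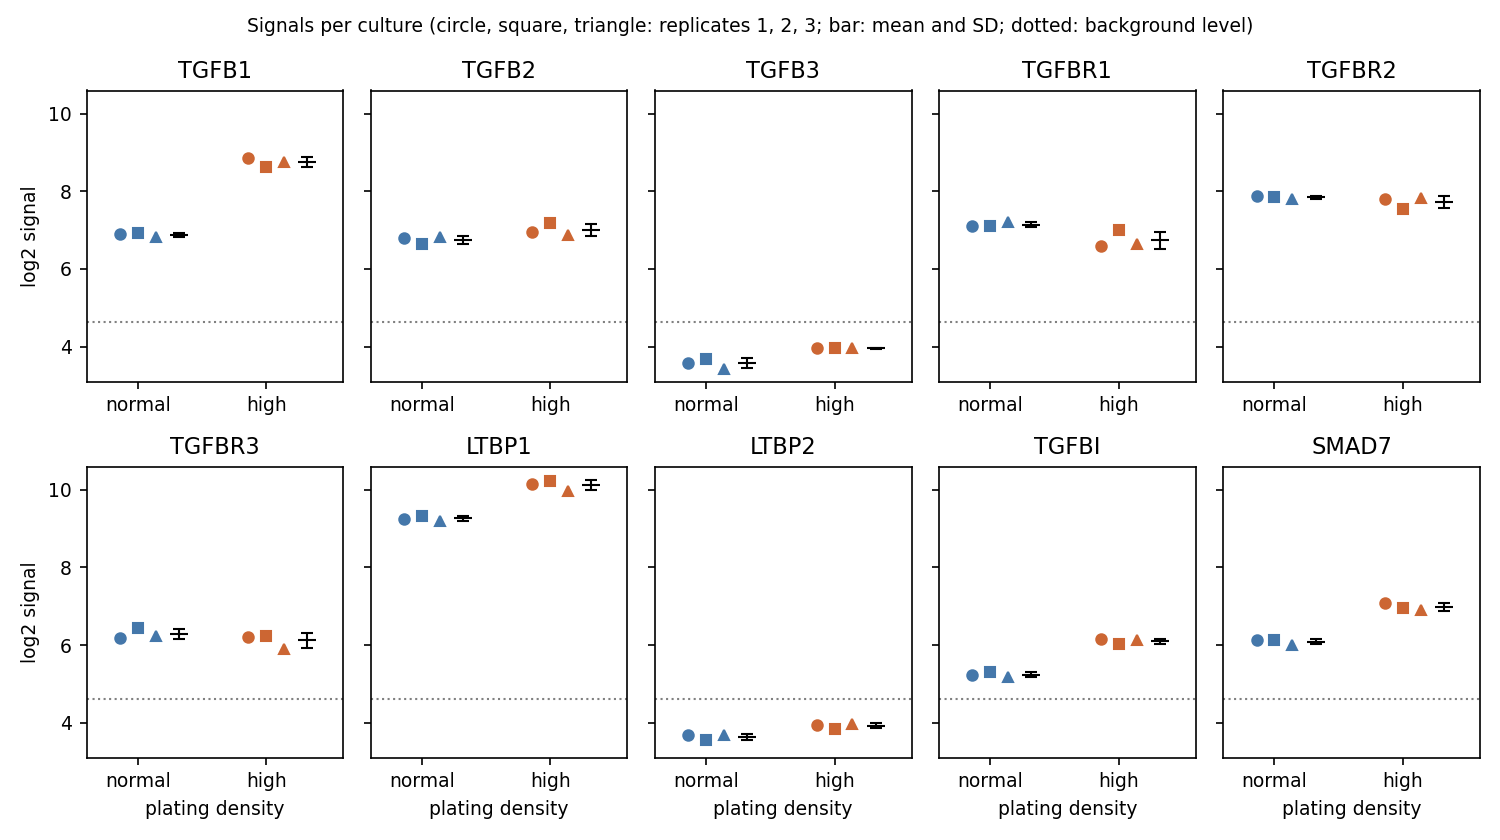
Log2 signals (vertical axis) of the 10 genes at normal (blue) and high (orange) plating density, with 1 symbol per culture, bars for mean and SD (n = 3), and a dotted line at the background level of 4.62. The groups stand clearly apart for TGFB1, LTBP1, TGFBI and SMAD7, those of TGFBR2 and TGFBR3 overlap, and TGFB3 and LTBP2 lie below the dotted line.

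Among the ligands, TGFB1 (transcript cluster 12755803) gave signals of 6.89, 6.93 and 6.81 in the normal density cultures and of 8.87, 8.63 and 8.76 in the high density cultures. Every high density culture was above every normal density culture, and the gap between the nearest cultures was 1.70 on the log2 scale. The means were 6.88 ± 0.06 and 8.75 ± 0.12 (SD, n = 3), a log2 difference of 1.88 ± 0.08 (SE; adjusted p = 2.17e-05 in limma). In the order of log2 fold changes this was the 90th largest rise of the table. Leaving out any culture kept it between 1.82 and 1.94.

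TGFB2 (12736694), which signals through the same receptors but needs the coreceptor TGFBR3 for strong binding, gave 6.80, 6.63 and 6.82 at normal density and 6.96, 7.18 and 6.86 at high density. The groups did not overlap, but the nearest cultures were only 0.04 apart, and replicate 2 was the highest at high density and the lowest at normal density. The means were 6.75 ± 0.10 and 7.004 ± 0.16 (SD, n = 3). The difference of 0.25 ± 0.10 (SE; adjusted p = 0.139 in limma) did not pass the FDR or the FC threshold, and its 95% interval ran from 0.01 to 0.49, below the log2 FC threshold of 0.58. Without high density replicate 2 the difference was 0.16.

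TGFB3 (12696574) was at 3.58, 3.69 and 3.43 at normal density and at 3.98, 3.95 and 3.95 at high density. All cultures were below the background level, so that no fold was taken from them. The difference of these signals was 0.39 ± 0.08 (SE; adjusted p = 0.0151 in limma), below the FC threshold. It no longer passed the FDR threshold without normal density replicate 1 (adjusted p = 0.0545 in limma) or replicate 3 (0.0571).

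The changes of the ligands were also compared with each other within each array. The change of TGFB1 exceeded that of TGFB2 by 1.62 ± 0.18 (SE, 95% interval 1.13 to 2.12) and that of TGFB3 by 1.48 ± 0.08 (SE, 95% interval 1.27 to 1.69) on the log2 scale. In both comparisons the high and normal density cultures did not overlap. The two-sided exact permutation test gave p = 0.1, below which a design of this size cannot go, and 0.3 after Benjamini-Hochberg adjustment over 6 pairs of ligands and of receptors. The change of TGFB2 minus that of TGFB3 was −0.14 (95% interval −0.59 to 0.31, exact permutation p = 0.5). All TGFB3 signals lay below the background level, so the sizes of the differences that involve TGFB3 are uncertain.

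**Figure D2:**
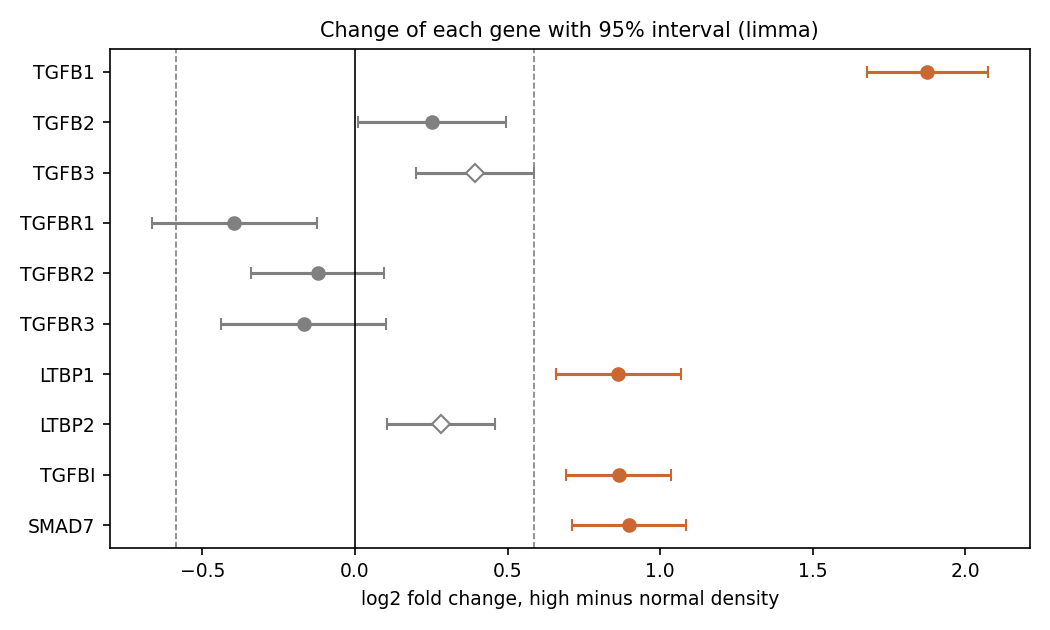
Log2 fold changes (horizontal axis, high minus normal density) of the 10 genes with 95% intervals from limma, orange where the gene was called and grey where it was not, open diamonds where both group means lay below the background level, and dashed lines at the FC threshold of 1.5. The intervals of TGFB1, LTBP1, TGFBI and SMAD7 lie wholly above the upper dashed line, and those of the 3 receptors lie below it.

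None of the receptors was called. TGFBR1 (12889169), the type I receptor and a kinase, gave 7.11, 7.10 and 7.22 at normal density and 6.60, 6.999 and 6.64 at high density. Every high density culture was lower, with replicate 2 much nearer to the normal density cultures than the other high density cultures were. The means were 7.14 ± 0.07 and 6.75 ± 0.22 (SD, n = 3), a difference of −0.39 ± 0.12 (SE, 95% interval −0.67 to −0.12; adjusted p = 0.0533 in limma). TGFBR1 therefore missed both the FDR and the FC threshold. Without high density replicate 2 its log2 fold change was −0.52 with limma's adjusted p = 0.00404, still below the FC threshold in size. With any other culture left out limma's adjusted p was between 0.118 and 0.165.

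TGFBR2 (12796464), the type II receptor that binds the ligand first, gave 7.87, 7.86 and 7.80 at normal density and 7.81, 7.54 and 7.82 at high density. The groups overlapped, and replicate 2 was again apart from the other high density cultures, here as the lowest. The difference was −0.12 ± 0.09 (SE; adjusted p = 0.418 in limma), with a 95% interval from −0.34 to 0.10. Without high density replicate 2 it was −0.03, and with array weights or a second quantile normalization −0.06 and −0.07.

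TGFBR3 (12841743), the coreceptor betaglycan, which also binds inhibin, gave 6.19, 6.43 and 6.23 at normal density and 6.21, 6.24 and 5.90 at high density. The groups overlapped, and replicate 3 was the lowest at high density. The difference was −0.17 ± 0.12 (SE; adjusted p = 0.369 in limma), with a 95% interval from −0.44 to 0.10. It was −0.06 without high density replicate 3, −0.09 without normal density replicate 2 and −0.26 with array weights. The intervals of TGFBR2 and TGFBR3 stay within the FC threshold of 1.5 on either side, whereas that of TGFBR1 reaches past it on the lower side. For the 3 pairs of receptors the differences in change were between −0.27 and 0.04, and the exact permutation p-values were between 0.3 and 0.9. The widest of their 95% intervals, for TGFBR1 against TGFBR2, ran from −0.90 to 0.36.

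LTBP1 (12699636), which holds latent TGF-beta in the matrix, gave 9.26, 9.32 and 9.21 at normal density and 10.16, 10.24 and 9.98 at high density. The groups were 0.66 apart at the nearest cultures, and replicate 2 was the highest and replicate 3 the lowest at both densities. The means were 9.26 ± 0.06 and 10.13 ± 0.13 (SD, n = 3), a log2 difference of 0.86 ± 0.09 (SE; adjusted p = 6.71e-04 in limma). This rise was called by the methods' t-test but not by its version for unequal variances (adjusted p = 0.0534).

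LTBP2 (12693498), a related matrix protein that is not known to bind latent TGF-beta itself, gave 3.69, 3.55 and 3.67 at normal density and 3.95, 3.84 and 3.97 at high density. All of these signals were below the background level, and no fold was taken. Their difference of 0.28 ± 0.08 (SE; adjusted p = 0.0385 in limma) was below the FC threshold. When single cultures were left out it passed the FDR threshold only without high density replicate 2 (adjusted p = 0.0205 in limma).

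The remaining genes are known as targets of the pathway. TGFBI (12881135), a secreted adhesion protein named for its induction by TGF-beta, gave 5.23, 5.30 and 5.18 at normal density and 6.15, 6.02 and 6.13 at high density. The densities were 0.72 apart at the nearest cultures. The means were 5.23 ± 0.06 and 6.10 ± 0.07 (SD, n = 3), a change of 0.86 ± 0.07 (SE; adjusted p = 2.99e-04 in limma).

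SMAD7 (12810353) gave 6.12, 6.12 and 6.003 at normal density and 7.09, 6.95 and 6.90 at high density. Replicate 3 was the lowest at both densities, and the groups were 0.78 apart. The means were 6.08 ± 0.07 and 6.98 ± 0.10 (SD, n = 3), a log2 difference of 0.90 ± 0.08 (SE; adjusted p = 3.72e-04 in limma). The log2 fold changes of LTBP1, TGFBI and SMAD7 stayed between 0.81 and 0.94 with any culture left out, and all 3 were called each time.

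**Figure D3:**
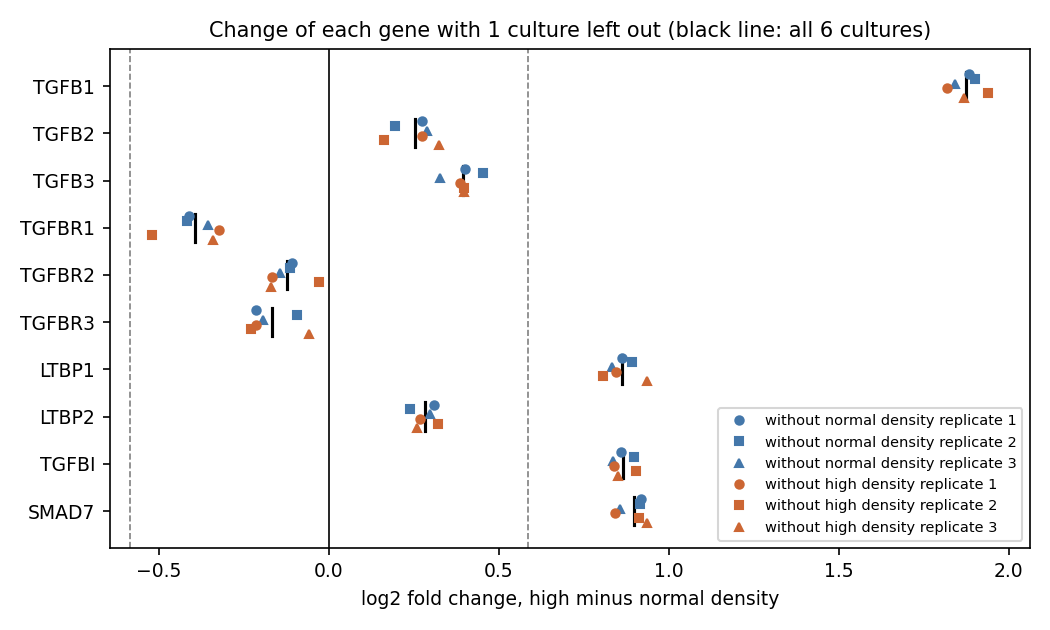
Log2 fold changes (horizontal axis, high minus normal density) of the 10 genes with all 6 cultures (black lines) and with 1 culture left out (blue, a normal density culture; orange, a high density culture; circle, square and triangle for replicates 1, 2 and 3), with dashed lines at the FC threshold of 1.5. No gene changes side of a dashed line, and the farthest point from its black line among the receptors is TGFBR1 without high density replicate 2, at −0.52.

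The spread within a density differed between the genes. The SD was between 0.04 and 0.13 at normal density and between 0.01 and 0.22 at high density. It was larger at high density for 8 of the 10 genes, as for 68.4% of all transcript clusters. High density replicate 2 was the culture farthest from the middle of its group for 6 genes. It was the lowest culture for TGFB1, TGFBR2, LTBP2 and TGFBI and the highest for TGFB2, TGFBR1, TGFBR3 and LTBP1, and thus it did not shift the genes in a common direction.

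For each gene that rose, the 3 named transcript clusters with the most similar pattern were taken by the root mean square difference of signals centred over the 6 arrays, out of 11165 candidates above the background level. These arrays form 2 separate groups, so that the similarity mainly reflects a change of equal size. Nearest to TGFB1 were IGFBP3, a binding protein of insulin-like growth factors, at a difference of 0.07, and FAM196A and DPP6, each at 0.08. Their log2 fold changes were 1.82, 1.85 and 2.01. Nearest to SMAD7 were ORMDL3, a regulator of sphingolipid synthesis, at 0.03, the AP-1 transcription factor JUNB at 0.04 and the transcriptional regulator LMO2 at 0.05, with log2 fold changes of 0.86, 0.84 and 0.88. IGFBP3 and JUNB also belong to the list of target genes described below. LTBP1 was nearest to THRB, PDK1 and PDE10A, each at 0.04, and TGFBI to ITPK1 (0.03), the glucose transporter SLC2A1 (0.04) and the mitochondrial folate enzyme MTHFD2 (0.04).

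The other genes of the pathway were described by lists written from general knowledge, but with earlier results of these data known. Of 18 transcript clusters of SMAD transducers, cofactors and brakes 1 rose and 0 fell, 5.56% against 7.49% of all, with a median log2 fold change of 0.00. At an unadjusted p below 0.05 limma had 1 higher and 2 lower, and the methods' t-test called 1 up and 0 down. The gene that rose was PMEPA1, a target gene that limits SMAD signalling, from 6.86 ± 0.16 to 7.87 ± 0.11 (SD, n = 3), a change of 1.01 (adjusted p = 6.95e-04 in limma). The receptor-activated SMAD3 had a difference of 0.11 (adjusted p = 0.575) and the common partner SMAD4 of 0.05 (adjusted p = 0.664). SMAD2 had no transcript cluster of its own, and the one listed under both SMAD3 and SMAD2 had a difference of −0.24 (adjusted p = 0.151 in limma). For SMAD6, the other inhibitory SMAD, the difference was −0.04 (adjusted p = 0.811), and for SMURF1, a ubiquitin ligase that acts with SMAD7, −0.08 (adjusted p = 0.471).

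Of the genes for latency, storage and activation, 2 of 21 rose and 1 fell, with a median log2 fold change of 0.05, and 14.3% of the list were called, against 7.49% of all transcript clusters and 12.8% of those above the background level. Fibronectin (FN1), on which LTBP1 is deposited, rose from 8.76 ± 0.06 to 9.82 ± 0.04 (SD, n = 3), a log2 difference of 1.06 (adjusted p = 1.11e-04 in limma). The protease MMP9 rose by 0.93 (adjusted p = 8.81e-04) from a normal density signal of 3.95, which is under the background level and makes that size uncertain. MMP2 fell by 0.63 on the log2 scale (adjusted p = 0.00764 in limma), and this call was lost without high density replicate 1 (−0.57) or replicate 2 (−0.56) and in the methods' t-test. Thrombospondin 1 (THBS1), an activator of latent TGF-beta, was higher by 0.44 (adjusted p = 0.00423 in limma), and the integrin subunit ITGB3 by 0.57 (adjusted p = 0.0011), both short of the FC threshold. The integrin subunits ITGAV and ITGB8, which form an activating receptor, had differences of 0.02 and −0.05 (limma's adjusted p = 0.831 and 0.708). LTBP3 had a difference of 0.09 (adjusted p = 0.582 in limma).

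Of 13 transcript clusters of accessory receptors and ligand traps, 4 rose and 1 fell, 38.5% of the list against 7.49% of all transcript clusters and 12.8% of those above the background level, with a median log2 fold change of 0.17. Fibromodulin (FMOD), a small proteoglycan that binds TGF-beta, rose from 7.98 ± 0.09 to 9.11 ± 0.14 (SD, n = 3), a change of 1.13 (adjusted p = 2.75e-04 in limma). BAMBI, a pseudoreceptor that lacks the kinase domain, rose by 0.68 (adjusted p = 0.0134), and the protease inhibitor A2M, which also binds TGF-beta, by 0.66 (adjusted p = 0.00184). The call of BAMBI was lost without normal density replicate 1 or 2 and in the methods' t-test, and that of A2M without normal density replicate 3 (0.58). The calls of biglycan (BGN), which rose, and asporin (ASPN), which fell, came from signals below the background level in both groups, and the list held 3 calls when such transcript clusters were removed. The proteoglycan decorin (DCN) had a difference of 0.17 (adjusted p = 0.113 in limma). Endoglin (ENG) was measured by a pair of transcript clusters with differences of 0.05 and 0.15 (limma's adjusted p = 0.706 and 0.237). The alternative type I receptor ACVRL1 was at 3.20 and 3.49, below the background level.

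Genes that textbooks give as TGF-beta targets showed the most calls of these lists. Of 27 measured genes 13 rose and 0 fell, with a median log2 fold change of 0.39. These calls were 48.1% of the list, against 7.49% of all transcript clusters and 12.8% of those above the background level. At an unadjusted p below 0.05 limma had 18 of them higher and 3 lower, against 15.1% and 17.2% of all transcript clusters, and the methods' t-test called 13 up and 0 down. Without high density replicate 1 the count was 12, since COL4A1 was then not called. The list was written with results of these arrays known and holds LOX and TGM2, which the study itself names, so that its count is no independent evidence of a direction.

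The matrix crosslinking enzyme TGM2 rose from 4.24 ± 0.14 to 8.35 ± 0.18 (SD, n = 3), a log2 difference of 4.11 (adjusted p = 8.94e-06 in limma), and LOX, which starts the crosslinking of collagen, rose by 2.68 from a signal of 3.31 ± 0.12. Both started below the background level, and the sizes of their rises are uncertain for that reason. CTGF, a matricellular protein, rose from 9.15 ± 0.07 to 10.73 ± 0.00 (SD, n = 3), a change of 1.59 (adjusted p = 2.06e-05 in limma). IGFBP3, which binds insulin-like growth factors, rose by 1.82 and the metalloproteinase inhibitor TIMP3 by 1.34. The actin cytoskeleton genes ACTA2 and TAGLN rose by 1.15 and 1.08. CDKN2B, a cell cycle inhibitor, rose by 0.75 (adjusted p = 0.00251 in limma) from a signal below the background level.

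Other genes of this list were not called or were called for some family members only. KLF10 had a difference of −0.48 (adjusted p = 0.00939 in limma) and the cell cycle inhibitor CDKN1A of −0.45 (adjusted p = 0.0397), both short of the FC threshold. The mesenchymal genes VIM and CDH2 had differences of −0.04 and 0.14 and periostin (POSTN) of 0.04, with limma's adjusted p = 0.75, 0.17 and 0.722. COL1A1 rose by 1.15 (adjusted p = 9.04e-04 in limma), whereas COL1A2 and COL3A1, with 0.38 and 0.39, stayed below the FC threshold.

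Markers of other ovarian cell types were examined beside these counts. In RNA from whole cultures, more cells of a type and more RNA per cell cannot be told apart. While 3.97% of all transcript clusters rose and 3.51% fell, 4 of the 7 fibroblast and stroma markers rose and 0 fell. These were THY1 with a log2 change of 1.71, DPT with 1.40 from signals below the background level in both groups, COL1A1 and PDGFRB, while LUM and PDGFRA, with differences of 0.01 and 0.32, were not called. At an unadjusted p below 0.05 limma had 5 of the 7 higher and 0 lower, and the methods' t-test called 4 up and 0 down. Its version for unequal variances called only 1 up and 0 down. DPT, PDGFRB and COL1A1 were then not called (adjusted p = 0.0832, 0.0613 and 0.0503). The log2 of the summed signals of this list was between 11.79 and 11.82 at normal density and between 11.93 and 11.97 at high density. LUM, at 11.64 and 11.65, makes most of this sum. The mean log2 signal of the list was between 6.18 and 6.21 at normal density and between 6.92 and 7.04 at high density. The theca cell marker INSL3 rose from 7.20 ± 0.06 to 9.02 ± 0.15 (SD, n = 3), while CYP17A1, which defines theca cells, was at 2.93 and 2.92, below the background level. Among the theca markers, 2 of 4 rose, the other being ACTA2, and 0 fell, beside 3.97% and 3.51% of all transcript clusters. The log2 of the summed signals of the theca list was between 8.46 and 8.59 at normal and between 9.70 and 9.92 at high density. Markers of endothelial cells, leukocytes and surface epithelium, 21 in all, had 0 calls by limma and by the methods' t-test. At an unadjusted p below 0.05 limma had 4 of these higher and 2 lower, beside 15.1% and 17.2% of all transcript clusters. Of 7 red blood cell markers HBA and HBM rose, the latter from low signals. The log2 of the summed signals of this list was between 5.82 and 5.85 at normal density and between 9.28 and 9.88 at high density. HBA alone, at 3.48 and 9.37, makes this difference, as the other 6 markers were below the background level at both densities. PECAM1 and CDH5 of endothelial cells and PTPRC of leukocytes were below the background level at both densities. In all, 6 of 7 endothelial, 8 of 8 leukocyte and 4 of 6 surface epithelium markers had no group mean above it. The exceptions were VWF of endothelial cells, at 5.39 and 5.70 (adjusted p = 0.0572 in limma), and 2 surface epithelium markers. These were MSLN, at 5.61 and 5.75, and CDH1, at 5.73 and 5.89 (limma's adjusted p = 0.205 and 0.177). COL1A1 and ACTA2 stand in the target gene list as well, and 11 of 25 target genes rose without them. The part of stromal or theca cells in the rises of TGFB1, LTBP1, TGFBI and SMAD7 was not tested.

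**Figure D4:**
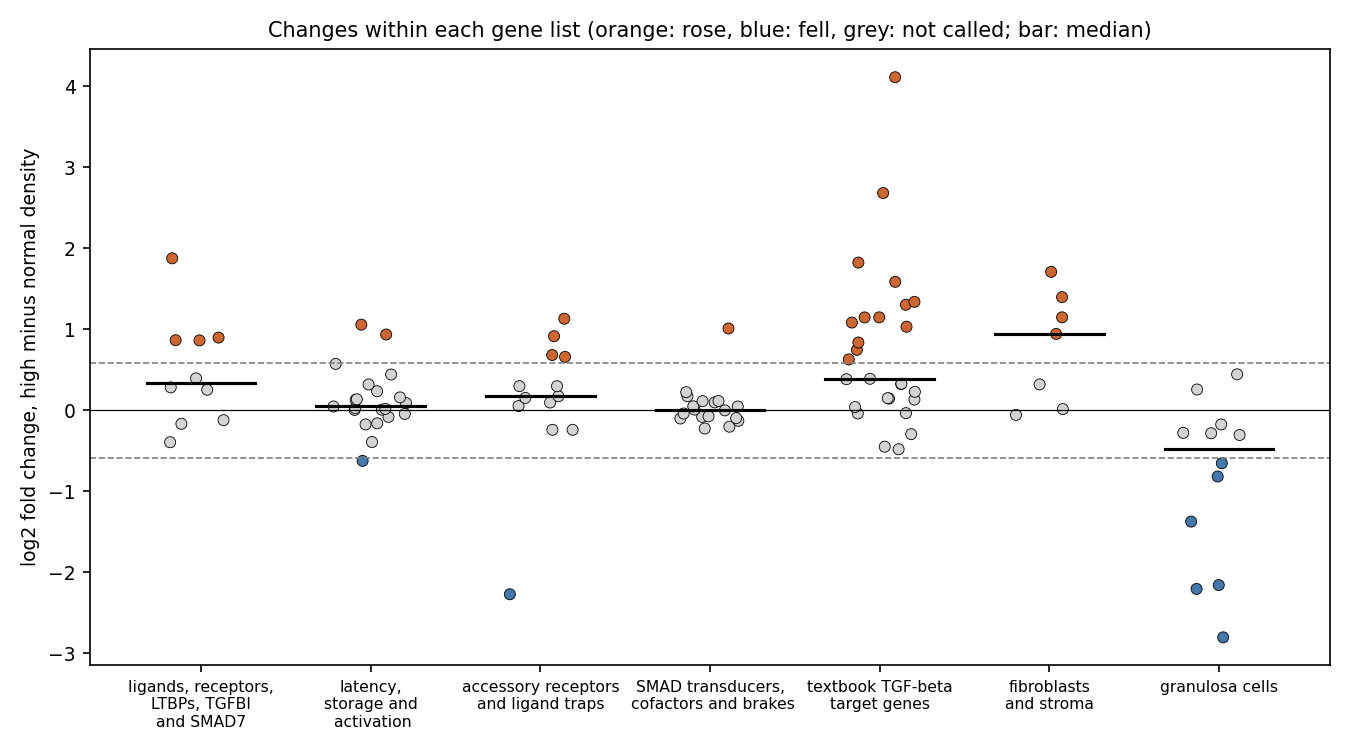
Log2 fold changes (vertical axis, high minus normal density) of the 10 genes, of 4 lists of other pathway genes and of the stroma and GC marker lists, with 1 point per transcript cluster, orange where it rose, blue where it fell and grey where it was not called. Bars are medians and dashed lines the FC threshold of 1.5. The SMAD transducers centre on 0.00 with PMEPA1 apart at 1.01, while 13 of 27 target genes lie above the upper dashed line.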

How the data were processed

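The RNA of each of the 6 cultures was measured on its own Affymetrix bovine gene array. The authors made the deposited log2 signals in Expression Console with RMA (background reduction, normalization, gene-level summary), and no further normalization was applied. Genome build and annotation are not given in the sources used here, so no positions were used. In the RefSeq gene table of assembly ARS-UCD2.0, 10 of 10 symbols were found, and the transcript identifiers of 6 of the 10 genes. The table has 0 columns of other samples. RMA draws arrays to a common distribution, so changes are relative to the other genes, and low signals understate folds.

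Densities were compared with limma 3.58.1 in R 4.3.3 (lmFit, eBayes, no covariates, Benjamini-Hochberg over 26773 transcript clusters). The methods' analysis of variance was an alternative. Tests of differences in change between genes were exact permutations (scipy 1.17.1). The scripts were tested on simulated data. The precision is limited by 3 arrays per group.

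Members and lists were chosen with earlier results of these data known. Named genes are the 10 members, up to 6 called genes per pathway list by size of change, core pathway genes, cell type markers and the 3 nearest patterns of each called member. TAGLN, CDKN2B, COL1A2, COL3A1, KLF10, CDKN1A, VIM, CDH2, POSTN, SMAD6, SMURF1, ITGAV, ITGB3, ITGB8, LTBP3, DCN and the transcript cluster of SMAD3 and SMAD2 are not covered by it and were picked with their values in view. Alternatives were other variance models, array weights, the replicate block, 2 other normalizations, a filter on low signals, stricter thresholds and leaving out each culture. Some genes counted in the lists are not reported here by name.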

Additional observations from a re-analysis of the deposited data

How the results depend on the processing

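The log2 fold changes of the 10 genes could differ from the main values in 9 of the alternatives, and all 90 values from these kept their direction. The calls were compared in 158 combinations of gene and alternative, and 154 kept the side of the calling thresholds. The 4 exceptions were LTBP1 with the Welch version of the t-test and LTBP1, TGFBI and SMAD7 with an FC threshold of 2. At the FDR threshold alone TGFBR1 passed in 5 of 14 fits (adjusted p from 0.00404 to 0.263 in limma and the other tests), TGFB3 in 10 of 13 and LTBP2 in 2 of 13. TGFB3 and LTBP2 were not tested after the filter on low signals. With the FC threshold of 2, 1 of the 10 genes (TGFB1), 651 of all transcript clusters, 1 gene of latency, storage and activation and 2 accessory receptors and traps were called. With the Welch version 838 of all transcript clusters and 2 accessory receptors and traps were called. The filter on low signals left 3 calls among accessory receptors and traps, where 3 of 13 transcript clusters were no longer tested. The cause of the lower counts with the Welch version was not tested. The background level was 2.48 as the median and 4.92 as the 99th percentile of the reporter control rows, and 10 and 8 of the 10 genes lay above it. With the replicate block limma called 4 of the 10 genes and 2020 of all transcript clusters. Same-numbered cultures deviated from their group means with correlations of 0.05, −0.05 and −0.04, and differently numbered ones with correlations between −0.07 and 0.09. These values were taken over all transcript clusters, many of them near background, and cannot decide whether cultures shared a pool. With each culture left out in turn 4 of the 10 genes and between 1848 and 2434 of all transcript clusters were called, the latter without high density replicate 2.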
